A study of Mus musculus with 21 samples.

Results

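The genes of the ciliated airway cell and of its motile cilium were followed by RNA sequencing through 7 groups of mouse lung tissue. They were chosen by symbol from a list of 36 names, of which 35 were rows of the count table among 38924 symbols, and all 35 passed the filter on low counts and were tested among 15770 genes. The remaining name, Cfap126, was not a row under that symbol. Its older symbol in the RefSeq table, 1700009P17Rik, was a row and is described apart from the 35. The mice were female A/J, a strain prone to lung tumours, and tissue was taken at 22 weeks. The groups of 3 libraries were Control (vehicle), NNK (the tobacco carcinogen NNK as 1 dose of 100 mg/kg into the abdomen), LPS (the bacterial endotoxin LPS, 5 µg in 50 µL into the nose every week) and NNK_LPS (NNK, then LPS from 1 week later). NNK_LPS_Sil, NNK_LPS_I3C and NNK_LPS_Sil_I3C received NNK and LPS together with silibinin (Sil, a milk thistle flavonolignan), indole-3-carbinol (I3C, a product of cruciferous vegetables) or both, each at 20 µmol per g of diet. For every group given NNK the labels describe RNA from tumours, dissected and pooled over 3 mice, and for Control and LPS from normal lung, so the action of NNK and the dissection of a tumour cannot be told apart. An injection volume is recorded for every group, LPS included, but a nasal volume only for the groups given LPS. The action of LPS and its instillation therefore cannot be told apart here. Whether replicate libraries stand for separate animals is not stated, so each p-value measures only how far libraries differ, which may be technical.

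Motile cilia line the conducting airways and carry mucus out of the lung. Each is built on the axoneme, a ring of microtubule doublets around a central pair, in which dynein motors on the doublets bend the shaft, radial spokes and the central pair set the beat, and transport trains deliver the parts. Foxj1 is the transcription factor that switches on the motile cilium programme, and it acts with Rfx2 and Rfx3, which bind a motif called the X-box near the start of many cilium genes. In bulk lung, fewer ciliated cells and less RNA per ciliated cell cannot be told apart, and no measurement here separates them.

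The X-box is the sequence feature that ties these genes to the RFX factors, so the bases before the start of 5 members are shown, with each copy of its core GTTGCC (or GGCAAC, the same letters on the other strand) in capitals. Tekt2, Dnaic2, Ccdc153 and Mlf1 were picked from the members that were called in a comparison described here and held a copy. Spag16 is printed because its copies lie side by side on opposite strands. All 5 were thus chosen for holding a copy, and they do not stand for the members at large. Before the start, 11 of 30 member genes with a sequence held one (36.7%), against 11.8% of all genes. The sequences come from RefSeq on GRCm38.p6, run 5′ to 3′ along the gene's strand, and end at the last base before the annotated gene: Tekt2 at chr4:126325689-126325938 on the minus strand, Dnaic2 at chr11:114727169-114727407 on the plus strand, Ccdc153 at chr9:44240427-44240675 on the plus strand, Mlf1 at chr3:67373847-67374096 on the plus strand and Spag16 at chr1:69826720-69826969 on the plus strand.
Tekt2: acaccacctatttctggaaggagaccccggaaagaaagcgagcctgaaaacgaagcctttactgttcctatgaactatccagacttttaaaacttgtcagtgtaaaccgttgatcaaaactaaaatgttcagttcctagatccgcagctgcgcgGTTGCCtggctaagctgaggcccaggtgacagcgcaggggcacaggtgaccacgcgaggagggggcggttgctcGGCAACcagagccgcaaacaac
Dnaic2: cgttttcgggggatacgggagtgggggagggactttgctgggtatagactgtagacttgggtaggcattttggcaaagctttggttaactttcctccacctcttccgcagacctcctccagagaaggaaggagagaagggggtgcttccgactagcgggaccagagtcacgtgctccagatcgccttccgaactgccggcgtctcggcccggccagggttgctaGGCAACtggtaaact
Ccdc153: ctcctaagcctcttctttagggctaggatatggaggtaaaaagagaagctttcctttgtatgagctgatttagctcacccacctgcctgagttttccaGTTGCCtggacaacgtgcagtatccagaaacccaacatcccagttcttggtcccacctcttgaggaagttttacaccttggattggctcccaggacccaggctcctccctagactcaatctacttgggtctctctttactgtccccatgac
Mlf1: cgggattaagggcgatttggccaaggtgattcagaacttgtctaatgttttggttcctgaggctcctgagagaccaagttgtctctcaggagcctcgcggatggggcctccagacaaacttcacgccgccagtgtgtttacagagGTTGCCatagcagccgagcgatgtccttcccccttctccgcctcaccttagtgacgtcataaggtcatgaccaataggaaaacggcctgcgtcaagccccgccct
Spag16: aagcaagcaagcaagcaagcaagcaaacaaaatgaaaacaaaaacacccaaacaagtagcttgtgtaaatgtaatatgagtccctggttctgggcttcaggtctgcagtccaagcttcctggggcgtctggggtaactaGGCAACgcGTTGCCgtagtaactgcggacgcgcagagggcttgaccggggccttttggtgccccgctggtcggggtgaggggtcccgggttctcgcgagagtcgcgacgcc

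Windows of 300 bases around the start, 250 before it and 50 after, were found for 30 of the 35 members. The RefSeq promoter table had no entry for Foxj1, Lrrc6, Rsph1, Rsph4a and Tppp3. The letters GTTGCC stood on either strand in the windows of 16 of the 30 member genes (53.3%), against 3821 of 27025 genes in the whole table (14.1%). Among the 16 were Tekt1, Tekt2, Tekt4, Hydin, Spag6, Spag16, Zmynd10, Dnaic2, Cdhr3 and Mlf1, together with Rfx2 and Rfx3 themselves. None of the dynein heavy chain genes Dnah2, Dnah5, Dnah6, Dnah9 and Dnah11 held them. Only these exact letters were searched, so a variant spelling of the X-box was not counted, and its absence from a gene is not shown. The forkhead letters GTAAACA, the kind of motif that Foxj1 family factors bind, stood in 2 of 30 member genes (6.67%), Ak7 and Mlf1, against 4.05% of all genes. In Mlf1 the forkhead match began at position -116 and the GTTGCC match at -105 relative to the start, and they did not overlap. These matches describe letters, and binding was not measured.

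Libraries held 13.3 to 25.3 M counts. They formed 3 sets by their counts of mt-Atp8 relative to mt-Atp6, a split that no label gives: set A (0.0206 to 0.0236) held Control, NNK and LPS 1 and 2, set B (0.0782 to 0.0876) held LPS 3, NNK_LPS, NNK_LPS_Sil and NNK_LPS_I3C 1, and set C (0.117 to 0.135) held NNK_LPS_I3C 2 and 3 and NNK_LPS_Sil_I3C. NNK versus Control and NNK_LPS_Sil versus NNK_LPS lay within 1 set. NNK_LPS shared no set with Control, NNK or NNK_LPS_Sil_I3C, so those comparisons have no value within a set. A set term in their fit is estimated from LPS and NNK_LPS_I3C, the groups that span a pair of sets. Defining genes of club, alveolar type 2 and alveolar type 1 cells were all above 1 CPM in every group, as lung tissue holds, and so were all 35 members. Libraries NNK 1 and NNK_LPS 2 stood apart for the ciliated genes. The numbers of calls that rest on them are given with and without them, or as a range over the libraries left out. Shares of all genes called come from the edgeR fit to all libraries, and counts from other fits have no share beside them.

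Levels are CPM, counts scaled to the normalised library size, listed for replicates 1, 2 and 3 in that order. The 35 members summed to 1422 to 1542 CPM in the Control libraries, 859 to 1273 in NNK, 998 to 1190 in LPS and 705 to 1165 in NNK_LPS. They summed to 980 to 1311 CPM in NNK_LPS_Sil, 1357 to 1685 in NNK_LPS_I3C and 1175 to 1455 in NNK_LPS_Sil_I3C. All NNK, LPS and NNK_LPS libraries thus lay below the lowest Control library, while the NNK_LPS_I3C libraries lay above every NNK_LPS library. Tppp3 held the largest part of each sum, at 427 to 507 CPM in Control and 165 to 206 CPM in LPS. A median over the 35 genes of the log2 level relative to the Control mean counts each gene alike. It was -0.06 to 0.09 in Control, -0.76 to -0.12 in NNK, -0.35 to -0.16 in LPS and -1.09 to -0.15 in NNK_LPS. The counts of the 35 members came to between 10754 and 43254 per library, so a sum is limited by the spread between libraries and not by counting.

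Per kb of the longest coding transcript, the member with the highest level in Control was Tppp3, a tubulin polymerisation promoting protein that marks ciliated cells and is also known from connective tissue, at 329.6 ± 29.9 CPM per kb (SD, n = 3). Foxj1 followed at 33.1 ± 2.08, Ccdc153, a coiled-coil gene of ciliated cells, at 21.9 ± 1.5 and Rsph1, of the radial spoke head, at 20.9 ± 1.07 CPM per kb. The last pair overlapped in range. At the other end stood Rfx3 at 2.15 ± 0.12 and Dnah2, a heavy chain of the inner dynein arm, at 1.64 ± 0.27 CPM per kb. Tppp3 and Foxj1 kept the first and second place in all 7 groups, and Dnah2 was last in every group but NNK_LPS_I3C.

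**Figure D1:**
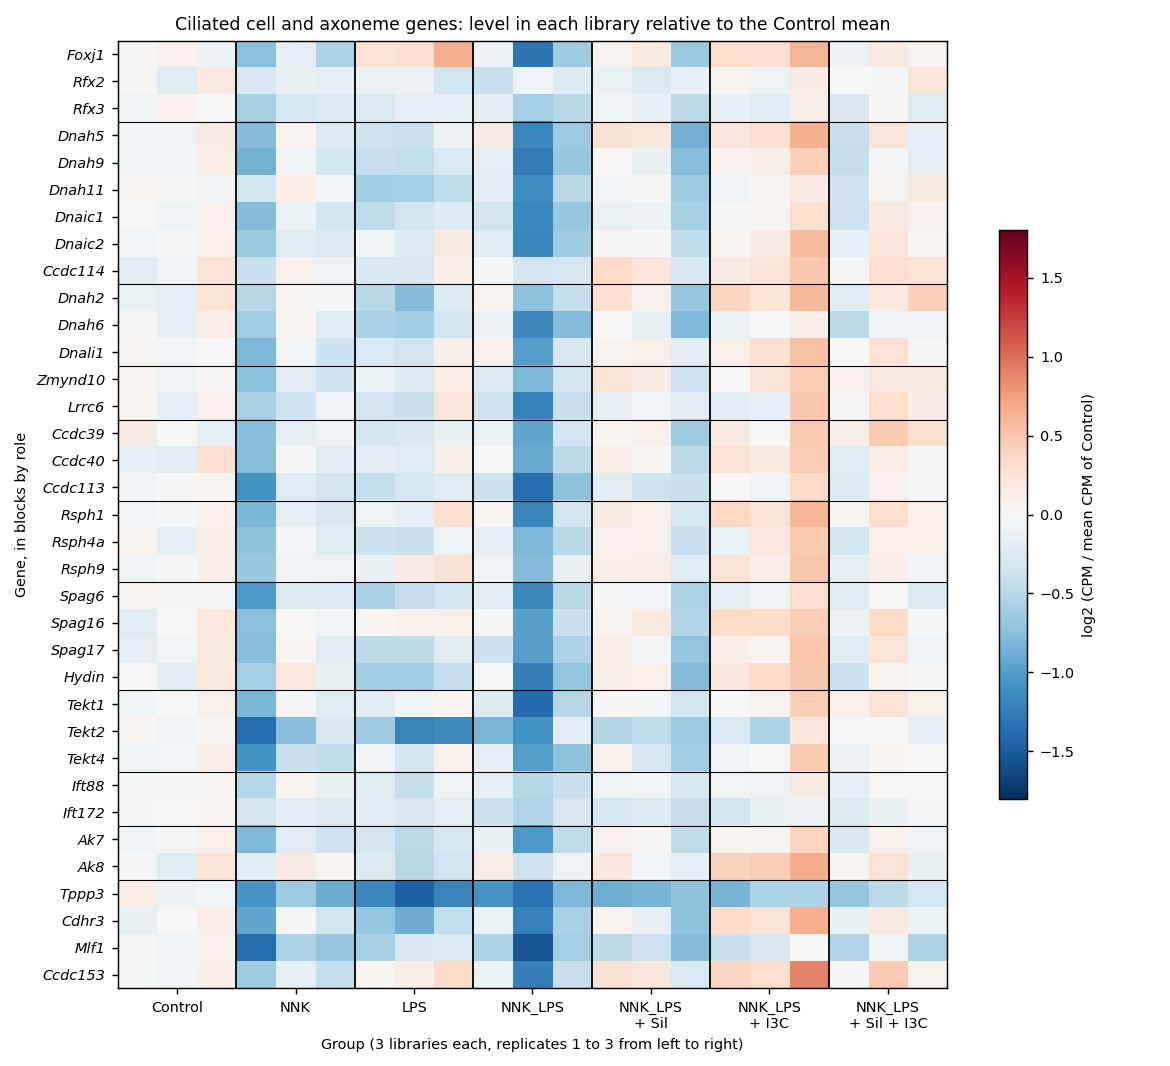
Log2 of the CPM of each of the 35 genes (rows, in blocks by role) in each of the 21 libraries (columns) relative to the gene's Control mean, with red for higher and blue for lower. Whole columns share a shade: NNK 1 and NNK_LPS 2 are the darkest blue, NNK_LPS_I3C 3 the strongest red, and Tppp3 is blue in all 18 libraries outside Control.

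In NNK tumours the ciliated genes stood lower than in Control lung, and few of the differences passed the test. Of the 35 members 3 fell and none rose, by edgeR's quasi-likelihood test with Benjamini-Hochberg adjustment over all 15770 genes, called at an adjusted p under 0.05. Over all genes 13.1% were called, 6.63% as lower, so 3 of 35 is near the background. The log2 fold change was below 0 for 34 of 35 members (52.4% of all genes), with a median of -0.33 against -0.02. The groups did not overlap, with NNK lower, for 16 of 35 members (20.5% of all genes).

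Tppp3 fell. It stood at 507, 427 and 446 CPM in Control and 220.1, 294 and 249 CPM in NNK, a log2 fold change of -0.86 ± 0.14 (SE, n = 3 per group, adjusted p = 0.00326). Every NNK library lay below every Control library, and the call held in all 12 alternatives. Mlf1, a myeloid leukaemia factor that is also part of the ciliated cell programme, fell from 17.7, 17.2 and 19.0 CPM to 6.89, 12.2 and 11.2 CPM, with -0.83 ± 0.24 (SE, n = 3 per group, adjusted p = 0.0301). The groups were again apart, with NNK 1 the lowest library, and the call was kept in 7 of 12 alternatives. Ift172, a subunit of the transport trains that all cilia use, fell from 75.2, 76.7 and 78.7 CPM to 60.2, 67.2 and 64.4 CPM, with -0.27 ± 0.08 (SE, n = 3 per group, adjusted p = 0.0426), and this small change was called in 4 of 12 alternatives.

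Genes of the beating machinery had values in the same direction without a call. Foxj1 stood at 88.4, 91.5 and 80.9 CPM in Control and 51.4, 76.6 and 59.1 CPM in NNK, with a log2 fold change of -0.48 (adjusted p = 0.202). Its groups did not overlap. The 6 genes of the outer dynein arm had log2 fold changes of -0.39 to -0.08 and the 4 of the central pair of -0.48 to -0.15. The tektins, filament proteins inside the doublets, had a median of -0.62, with Tekt2 at -0.74 (adjusted p = 0.06) and Tekt4 at -0.62 (adjusted p = 0.0792). Ak8, an adenylate kinase of the cilium, was at 0.00.

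The NNK values rest in part on library NNK 1, which was the lowest of its group for 35 of 35 members (37.2% of all genes). Without it the members' median log2 fold change was -0.18 and 1 member was called. Leaving out any 1 Control library also left 1 call. Club cell markers, genes of the secretory cell beside the ciliated cell in the airway, moved with the ciliated genes: 6 of 8 fell and none rose, and their sum was 40433, 37789 and 37059 CPM in Control and 18228, 26219.9 and 26263 CPM in NNK, lowest in NNK 1. Alveolar type 2 markers moved the other way, with 6 of 8 higher, and heart muscle markers fell, 7 of 7, from 530.5 to 557.5 CPM in sum to 113 to 246 CPM. The part of these cell types in the result was not tested.

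In LPS lung, without tumour, 30 of 35 members had a log2 fold change below 0 (51.6% of all genes). Tppp3, Tekt2, Cdhr3, Dnah11 and Ift172 fell, no member rose, and Foxj1 stood above Control in every library without a call. The 5 of 35 called, all lower, stand beside 50% of all genes called and 24.7% called lower. The median log2 fold change was -0.25 for the members and -0.02 for all genes. LPS libraries lay below all Control libraries for 19 members (30.9% of all genes) and above them for 1 member, Foxj1 (30.4%). The count depended on the fit: with the Control and LPS libraries fitted alone 16 members fell and Foxj1 rose, and with the library set as a term 3 fell. How many of all genes those fits called is not given here. Without Control 1, LPS 1 or LPS 2 the count was 2, without Control 2 or Control 3 it was 3, and without LPS 3 it was 5.

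Tppp3 had the largest change of any member in any comparison. Its LPS libraries held 206, 165 and 199.7 CPM against 507, 427 and 446 CPM in Control, a log2 fold change of -1.27 ± 0.14 (SE, n = 3 per group, adjusted p = 1.45e-06). Tekt2 stood at 14.1, 12.9 and 14.0 CPM in Control and 8.74, 5.94 and 6.19 CPM in LPS, a log2 fold change of -0.97 ± 0.26 (SE, n = 3 per group, adjusted p = 0.00446). Both pairs of groups were well apart, and both calls held in all 12 alternatives. Cdhr3, a cadherin of ciliated cells known as a rhinovirus C receptor, had 41.6, 45.6 and 49.6 CPM in Control and 28.2, 24.6 and 33.5 CPM in LPS, with -0.67 ± 0.26 (SE, n = 3 per group, adjusted p = 0.0414). That call was kept in 4 of 12 alternatives. Dnah11, a heavy chain of the outer dynein arm, was at -0.56 ± 0.20 (SE, n = 3 per group, adjusted p = 0.0296). Ift172 was at -0.23 ± 0.08 (SE, n = 3 per group, adjusted p = 0.0303). The Dnah11 and Ift172 calls were each kept in 7 of 12 alternatives. Exons of Tekt2 share 20.8% of their bases with Gm12945 and those of Dnah11 share 4.44% with Cdca7l, both on the opposite strand, and whether the counting used strand is not given in the sources used here.

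Foxj1 held 104, 107 and 136 CPM in LPS against 88.4, 91.5 and 80.9 CPM in Control, a log2 fold change of 0.41 (adjusted p = 0.176) with a 95% interval of -0.11 to 0.93. The LPS 1 and 2 libraries, which belong to the same set as Control, were above all Control libraries as well. Set against the mean log2 level of the other members in the same library, Foxj1 was 2.37 to 2.57 higher in LPS and 1.56 to 1.90 higher in Control. That difference was 1.44 to 2.04 in the other 5 groups, so no other group overlapped the LPS libraries. Ccdc153 stood at 0.21 to 0.34 relative to the other members in LPS and -0.19 to -0.15 in Control, while its own log2 fold change was 0.17 (adjusted p = 0.565). In NNK_LPS_I3C this relative level was 0.08 to 0.35, which overlapped LPS. Tppp3, by contrast, was 3.10 to 3.39 above the other members in LPS and 4.10 to 4.41 in Control. Its ranges in NNK_LPS (3.34 to 3.90), NNK_LPS_Sil (3.33 to 4.01) and NNK_LPS_I3C (3.26 to 3.60) overlapped that of LPS. These relative levels are descriptions, chosen after the values were seen.

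Among the other members, none passed the test in either direction. The radial spoke genes Rsph1, Rsph4a and Rsph9 were at 0.04, -0.28 and 0.11 on the log2 scale, and the assembly factors Zmynd10 and Lrrc6, which build dynein arms in the cytoplasm, at -0.07 and -0.15. The heavy chain gene Dnah2 was at -0.50, Dnah5 at -0.28, Dnah6 at -0.50 and Dnah9 at -0.37, and Hydin, of the central pair, at -0.55. Transcript length moved with the result. The 9 members with a coding transcript of at least 5000 bases had a median of -0.38 and the 26 shorter ones -0.17, and over all genes tested with a known length the medians were -0.20 (2910 genes) and 0.03 (11019 genes). The part of length in the result was not tested. In the same libraries 6 of 8 club markers fell (median -1.69), 3 of 7 goblet markers and 6 of 8 leukocyte markers rose (medians 1.10 and 1.82), and 7 of 7 heart muscle markers fell (median -2.34). The sum of the leukocyte markers was 381 to 574 CPM in Control and 1277 to 1488 CPM in LPS, and the part of a changed mix of cells was not tested.

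**Figure D2:**
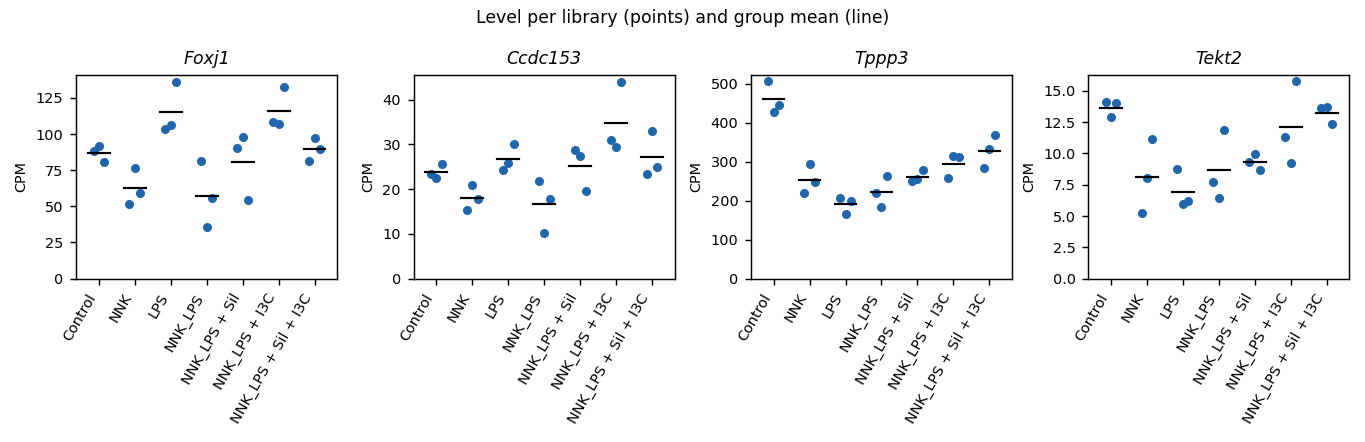
CPM of Foxj1, Ccdc153, Tppp3 and Tekt2 (vertical axes, from 0) in each library (points) of the 7 groups, with group means as lines. Foxj1 is above Control in the 3 LPS libraries while Tppp3 and Tekt2 are below it, and Tppp3 stays under all Control libraries in every treated group.

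In NNK_LPS tumours all 35 members had a log2 fold change below 0 against Control (51.8% of all genes), with a median of -0.52 against -0.02. Of the 35, 8 fell and none rose, beside 24.6% of all genes called and 12.6% called lower. They were the transcription factor Rfx3, Dnaic1 and Dnaic2 (intermediate chains of the outer dynein arm), Ccdc113 (a coiled-coil protein of the axoneme and centriolar satellites), Tekt1, Ift172, Tppp3 and Mlf1. NNK_LPS libraries lay below all Control libraries for 19 members (21.4% of all genes).

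Tppp3 had 220.4, 184 and 262 CPM in NNK_LPS, and its log2 fold change against Control was -1.05 ± 0.14 (SE, n = 3 per group, adjusted p = 0.000159). Mlf1 stood at 12.1, 6.10 and 11.8 CPM, with -0.84 ± 0.24 (SE, n = 3 per group, adjusted p = 0.016). Ccdc113 stood at 12.7, 13.4 and 13.8 CPM in Control and 10.2, 5.18 and 7.97 CPM in NNK_LPS, with -0.77 ± 0.21 (SE, n = 3 per group, adjusted p = 0.0155). For each of these the 2 groups were apart, and NNK_LPS 2 was the lowest library. Dnaic1 fell by 0.69 (adjusted p = 0.0185) and Dnaic2 by 0.63 (adjusted p = 0.0367), Tekt1 by 0.64 (adjusted p = 0.046), Rfx3 by 0.43 (adjusted p = 0.0296) and Ift172 by 0.40 (adjusted p = 0.00284), all on the log2 scale.

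Dnah5, Dnah6 and Hydin, which were not called, had widely spread NNK_LPS libraries. Dnah5, the main heavy chain of the outer arm, had 84.0, 33.8 and 48.0 CPM in NNK_LPS against 71.4, 72.3 and 83.7 CPM in Control, so that NNK_LPS 1 lay above the highest Control library and the others under the lowest. Its log2 fold change was -0.46 (adjusted p = 0.3). Dnah6, an inner arm heavy chain, had 86.4, 41.6 and 54.2 CPM against 93.8, 83.5 and 101 CPM, and Hydin had 44.6, 19.0 and 27.1 CPM against 44.5, 38.7 and 50.0 CPM. In both, NNK_LPS 1 lay within the Control range and the other libraries below it. NNK_LPS 2 was the lowest of its group for 34 of 35 members (35.1% of all genes) and NNK_LPS 1 the highest for 31 (32.1%). Leaving out any 1 Control library, or fitting the compared groups alone, left 4 calls. Without NNK_LPS 2 the members' median was -0.30 and 2 were called, and without NNK_LPS 1 the median was -0.71 and 19 were called. With the library set as a term no member was called and the median was -0.76. The share of all genes called in each of these other fits is not given here. Club markers fell, 6 of 8 (sum 20743, 17052 and 25387 CPM in NNK_LPS), alveolar type 2 markers rose, 7 of 8, and heart muscle markers fell, 7 of 7. Their part in the result was not tested.

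Genes for dynein assembly, the axoneme ruler and the adenylate kinases were not called in NNK_LPS versus Control. Zmynd10 had 16.2, 14.5 and 15.6 CPM in Control, 9.16, 13.5 and 12.0 CPM in NNK, 14.3, 13.0 and 16.9 CPM in LPS and 12.9, 8.79 and 12.1 CPM in NNK_LPS, and its NNK_LPS libraries all lay below Control (log2 fold change -0.45 (adjusted p = 0.0731)). Ccdc40, which with Ccdc39 forms the ruler that spaces spokes and inner arms along the doublet, had 32.8, 31.5 and 44.2 CPM in Control and 36.3, 19.3 and 25.9 CPM in NNK_LPS, where replicate 1 fell within the Control range (-0.41 (adjusted p = 0.188)). Ak7, an adenylate kinase that supplies energy to the axoneme, had 37.8, 39.6 and 42.7 CPM and 36.4, 19.5 and 29.1 CPM, with every NNK_LPS library below Control (-0.50 (adjusted p = 0.07)). In all of these genes NNK_LPS 2 was the lowest NNK_LPS library and NNK_LPS 1 the highest. Foxj1 was at -0.60 (adjusted p = 0.0848) with an overlap of groups, as NNK_LPS 1 reached 81.1 CPM.

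The remaining members, none of them called against Control in NNK_LPS, had log2 fold changes from -0.57 for Cdhr3 to -0.10 for Ak8, apart from lower values for Dnah9 (-0.64), Lrrc6 (-0.62), Spag17 (-0.63), Tekt2 (-0.65) and Tekt4 (-0.59). Within the outer arm, Ccdc114, of the complex that docks the arm on the doublet, was at -0.21 and Dnah11 at -0.55. Within the inner arm, Dnah2 was at -0.33 and the light intermediate chain gene Dnali1 at -0.34. The intermediate chain genes Dnaic1 and Dnaic2 of the outer arm, which were called, had larger differences than these 4. The spoke head genes Rsph1, Rsph4a and Rsph9 were at -0.41, -0.46 and -0.30, and the central pair genes Spag6 and Spag16 at -0.56 and -0.42. Ccdc39 was at -0.42, Ccdc153 at -0.52, Ift88 at -0.35 and Rfx2 at -0.24.

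**Figure D3:**
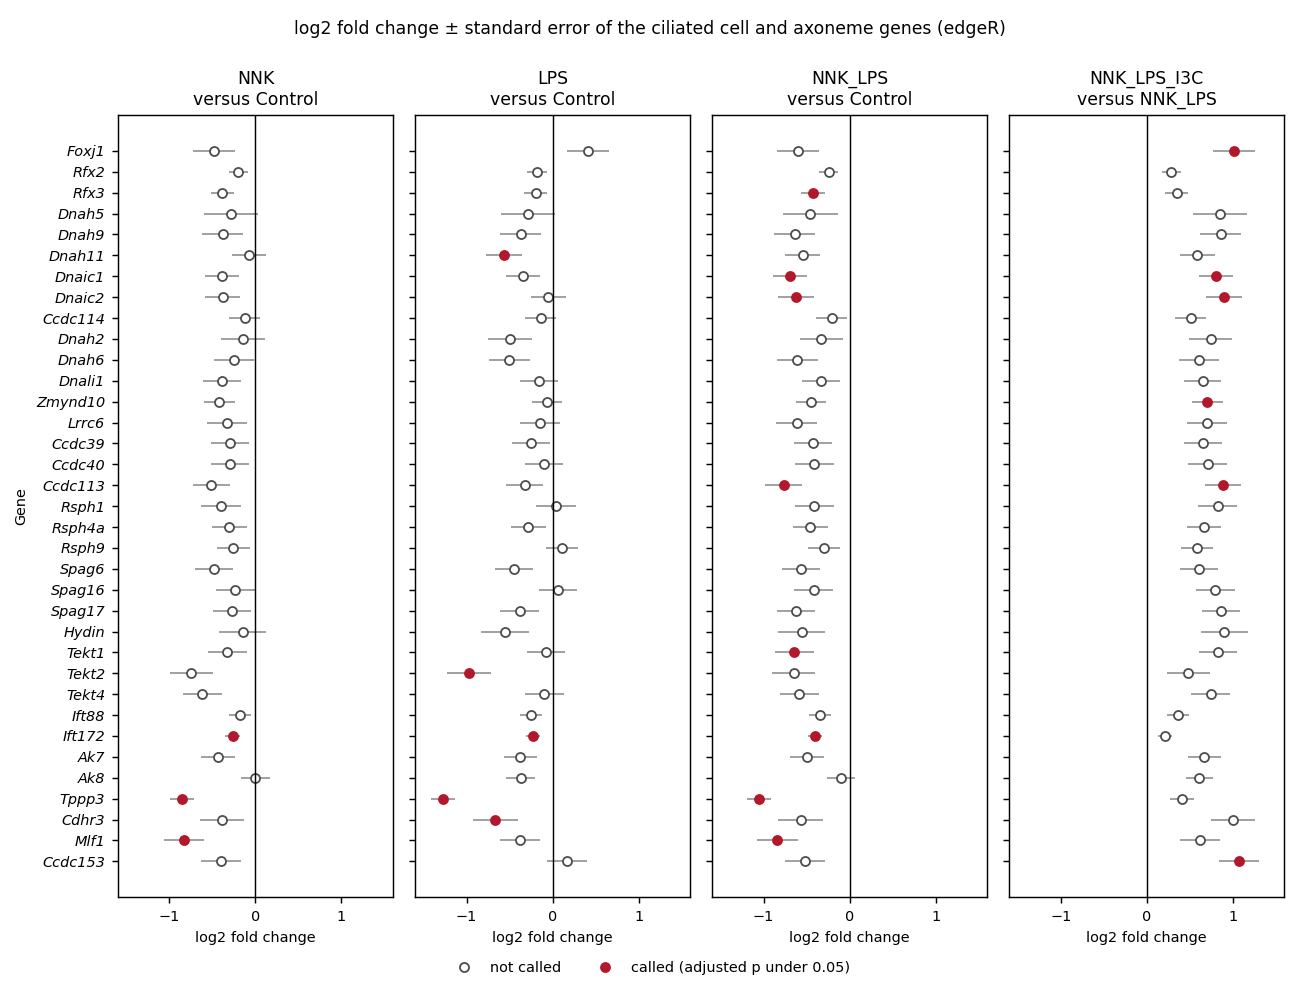
Log2 fold change with its standard error (horizontal axes) for the 35 genes in 4 comparisons, with filled points for genes called at an adjusted p under 0.05. Points lie left of 0 in NNK and NNK_LPS versus Control, on both sides in LPS versus Control with Foxj1 farthest right, and right of 0 in NNK_LPS_I3C versus NNK_LPS.

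No ciliated gene was called for the addition of LPS among tumours. In NNK_LPS versus NNK 0 of 35 members passed edgeR's test, beside 0.0951% of all genes, and DESeq2 also called 0. An unadjusted p under 0.05 was found for 1 member and for 2517 of all 15770 genes. The median log2 fold change was -0.14. The interval of the difference was wide: for Foxj1 it ran from -0.65 to 0.41 (95%), so changes within that range in either direction were not excluded. Without NNK_LPS 2 the median was 0.03. The NNK and NNK_LPS libraries overlapped for every member, while 10.7% of all genes were wholly higher and 9.5% wholly lower in NNK_LPS.

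Set against LPS lung, NNK_LPS tumours held less of Foxj1, Ccdc153 and Dnaic2. Beside 38.2% of all genes called, 20.9% as lower, 3 of 35 members fell and none rose. The members' median was -0.18. Foxj1 had 104, 107 and 136 CPM in LPS and 81.1, 35.4 and 55.7 CPM in NNK_LPS, a log2 fold change of -1.01 ± 0.25 (SE, n = 3 per group, adjusted p = 0.00418). Ccdc153 had 24.3, 25.8 and 30.1 CPM in LPS and 21.9, 10.1 and 17.8 CPM in NNK_LPS, with -0.69 ± 0.23 (SE, n = 3 per group, adjusted p = 0.0273). For both genes every NNK_LPS library lay below every LPS library. Dnaic2 had 16.5, 14.6 and 19.4 CPM in LPS and 14.9, 7.67 and 11.2 CPM in NNK_LPS, with -0.58 ± 0.21 (SE, n = 3 per group, adjusted p = 0.0362), and its groups overlapped. NNK_LPS lay wholly below LPS for 6 members (27.4% of all genes). Foxj1 was called in 12 of 13 alternatives, Ccdc153 in 7 and Dnaic2 in 6. In set B alone, where LPS had only replicate 3 and its spread was assumed to be that of the other groups, the log2 fold change of Foxj1 was -1.23 (adjusted p = 0.125 by edgeR), a test that says little with 1 library in an arm. Without NNK_LPS 2 or LPS 3, and with the compared groups fitted alone, 1 member was called, and without NNK_LPS 1 8 were.

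The effect of LPS differed between tumour and lung for Tppp3 and Tekt2, the members that fell most in LPS lung. The difference was tested as the interaction of the 4 groups, in which 25.1% of all genes were called and 10.7% as higher. For Tppp3 the log2 change with LPS was -1.27 in lung and -0.19 in tumours, and the difference was 1.08 ± 0.20 (SE, n = 3 per group, adjusted p = 0.000749). For Tekt2 it was -0.97 in lung and 0.09 in tumours, where NNK held 5.22, 8.06 and 11.2 CPM and NNK_LPS 7.74, 6.43 and 11.8 CPM, and the difference was 1.07 ± 0.36 (SE, n = 3 per group, adjusted p = 0.0388). In tumours of mice given NNK without LPS, both stood below every Control library, Tppp3 with a call against Control and Tekt2 without one. The median of the members was 0.10 and that of all genes 0.03. Foxj1, with the lowest value of any member, was at -0.53 (adjusted p = 0.287). The Tppp3 call was kept in 18 of 18 alternatives and the Tekt2 call in 8 of 18.

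With I3C in the diet the ciliated genes stood higher than in NNK_LPS tumours on the basal diet. All 35 members had a log2 fold change above 0 (52.3% of all genes), with a median of 0.70 against 0.01, and 6 rose: Foxj1, Dnaic1, Dnaic2, Zmynd10, Ccdc113 and Ccdc153. Over all genes 2.02% were called and 1.22% as higher. For 29 members every NNK_LPS_I3C library lay above every NNK_LPS library (12.2% of all genes). An unadjusted p under 0.05 was found for 34 members and for 3251 of all 15770 genes. The members moved together from library to library, so these counts are not those of 35 separate observations.

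Ccdc153 had 21.9, 10.1 and 17.8 CPM in NNK_LPS and 30.9, 29.5 and 43.9 CPM in NNK_LPS_I3C, a log2 fold change of 1.07 ± 0.23 (SE, n = 3 per group, adjusted p = 0.0339). Foxj1 had 81.1, 35.4 and 55.7 CPM and 108, 107 and 132 CPM, with 1.01 ± 0.25 (SE, n = 3 per group, adjusted p = 0.0453). Dnaic2 had 14.9, 7.67 and 11.2 CPM and 17.8, 19.3 and 25.8 CPM, with 0.90 ± 0.21 (SE, n = 3 per group, adjusted p = 0.0373). In all 3 genes the lowest I3C library exceeded the highest NNK_LPS library. Dnaic1 rose by 0.80, Ccdc113 by 0.88 and Zmynd10 by 0.70 on the log2 scale, with adjusted p-values of 0.0456, 0.0422 and 0.0482 by edgeR, all close to the threshold.

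Structural genes without a call had values of the same size. Dnah5 had 87.6, 93.2 and 118 CPM in NNK_LPS_I3C, a log2 fold change of 0.85 (adjusted p = 0.139). Rsph1 went from 25.5, 11.1 and 19.6 CPM in NNK_LPS to 32.2, 29.4 and 38.0 CPM, with 0.83 (adjusted p = 0.0648). Role medians ran from 0.29 for the transport genes Ift88 and Ift172, which every cilium needs, through 0.35 for the transcription factors to 0.82 for the outer dynein arm and 0.83 for the central pair. Tppp3, at 258, 314 and 312 CPM, had one of the smaller values, 0.41 (adjusted p = 0.11), and stayed below all Control libraries. Cdhr3, a cadherin of the ciliated cell surface, had 42.1, 19.7 and 30.3 CPM in NNK_LPS and 58.2, 54.7 and 71.9 CPM in NNK_LPS_I3C, apart from each other, and its 1.00 (adjusted p = 0.0526) was among the largest values that missed the threshold. Ak7 had 41.5, 41.3 and 52.3 CPM, with 0.67 (adjusted p = 0.0711), and Ccdc40 43.2, 40.7 and 49.2 CPM, with 0.71 (adjusted p = 0.0902); both lay above all NNK_LPS libraries. Dnah6 had 85.5, 92.1 and 99.7 CPM and overlapped NNK_LPS in NNK_LPS 1, with 0.61 (adjusted p = 0.153).

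The number of I3C calls turned on the libraries and the fit. The counts from other fits that follow have no share of all genes called beside them. Without NNK_LPS 2 no member was called and the median was 0.49. Without NNK_LPS 1 23 members were called. Leaving out NNK_LPS_I3C 1 or NNK_LPS_I3C 3 also left 0, and leaving out NNK_LPS 3 or NNK_LPS_I3C 2 left 1. With the replicate number as a block, 2 members were called by edgeR, Dnaic2 (adjusted p = 0.0499) and Ccdc153 (adjusted p = 0.045). No label pairs these libraries, and in NNK_LPS_I3C replicate 1 was of set B and replicates 2 and 3 of set C. DESeq2 called 19. With the library set as a term the count was 0 and the median 0.55, and with the compared groups fitted alone it was 0 and 0.70. In set B alone I3C had only replicate 1, and the median against NNK_LPS was 0.53. This comparison and NNK_LPS versus Control share the NNK_LPS libraries, so they are not separate evidence. In the I3C libraries 3 of 8 club markers rose, 5 of 8 alveolar type 2 markers fell, and 7 of 7 heart muscle markers rose, with a sum of 373 to 544 CPM against 81.9 to 156 CPM in NNK_LPS. Basal cell markers, of the airway stem cell, summed to 22.8 to 27.2 CPM against 1.38 to 13.3 CPM, with 0 of 4 tested called. The part of these cell types in the result was not tested.

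Silibinin and the 2 agents together gave values in the same direction with no call among the members. In NNK_LPS_Sil versus NNK_LPS all 35 were above 0 (51.5% of all genes), with a median of 0.35 against 0.00. Both edgeR and DESeq2 called 0, beside 0% of all genes by edgeR. An unadjusted p under 0.05 was found for 6 members and for 578 of all 15770 genes. Foxj1 had 90.4, 97.9 and 54.5 CPM there, with a log2 fold change of 0.50 (adjusted p = 1). NNK_LPS_Sil 3 was the lowest of its group for 33 of 35 members (43.7% of all genes), and without it the median was 0.51. NNK_LPS 2, the lowest library of NNK_LPS for 34 of 35 members (35.1% of all genes), also enters this comparison and the next. Leaving NNK_LPS 2 out gave 0 edgeR calls in each, and the medians without it are not given here. In NNK_LPS_Sil_I3C versus NNK_LPS all 35 were above 0 (53.7% of all genes) with a median of 0.49 against 0.02, and 15 did not overlap, all higher (9.47%). edgeR called 0 of 35 beside 1.36% of all genes. An unadjusted p under 0.05 was found for 22 members and for 2602 of all 15770 genes. DESeq2 called 9 members and the fit with the replicate block 1, and their shares of all genes are not given here. Foxj1 had 81.0, 97.3 and 89.6 CPM, with 0.64 (adjusted p = 0.205), and Ccdc153 23.4, 32.9 and 24.9 CPM, with 0.70 (adjusted p = 0.136). Tekt1, a tektin, had 12.7, 5.71 and 10.6 CPM in NNK_LPS and 16.0, 17.7 and 16.1 CPM with both agents, the largest value of a member in that comparison, 0.78 (adjusted p = 0.0917). Differences between the diets were not tested. Beside these values 0 of 8 club markers were called with silibinin and 2 of 8 rose with both agents, 0 and 3 of 8 alveolar type 2 markers fell, and no heart muscle marker was called; their part in the result was not tested.

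Within groups the ciliated genes varied from library to library as a block. Their median coefficient of variation over the 3 libraries was 6.86% in Control, below the 8.79% of all genes at 1 CPM or more, but 22.4% in NNK against 9.17% and 31.3% in NNK_LPS against 10.9%. In LPS it was 11.4% against 8.16%, in NNK_LPS_Sil 19.0% against 11.3%, in NNK_LPS_I3C 13.9% against 10.6% and in NNK_LPS_Sil_I3C 12.2% against 9.06%. The highest library exceeded the lowest by a median factor of 1.87 in NNK_LPS, 1.58 in NNK and 1.14 in Control. NNK_LPS_I3C 3 was the highest of its group for 34 members (35.5% of all genes), NNK 2 for 31 and LPS 3 for 30. The summed club markers did not always share that order: NNK_LPS 2 was lowest for both, but NNK_LPS 3, with 25387 CPM, exceeded NNK_LPS 1, with 20743 CPM. The transcription factors Rfx2 and Rfx3 and the transport genes Ift88 and Ift172 had smaller factors in NNK_LPS, of 1.24, 1.32, 1.27 and 1.18, against 2.29 for Foxj1 and 2.49 for Dnah5. Ccdc114, of the docking complex of the outer arm, also had a factor of 1.24, so small factors were not confined to those genes. Rfx2 had 16.6, 20.5 and 18.4 CPM in NNK_LPS and was the 1 member whose lowest value was not in NNK_LPS 2.

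**Figure D4:**
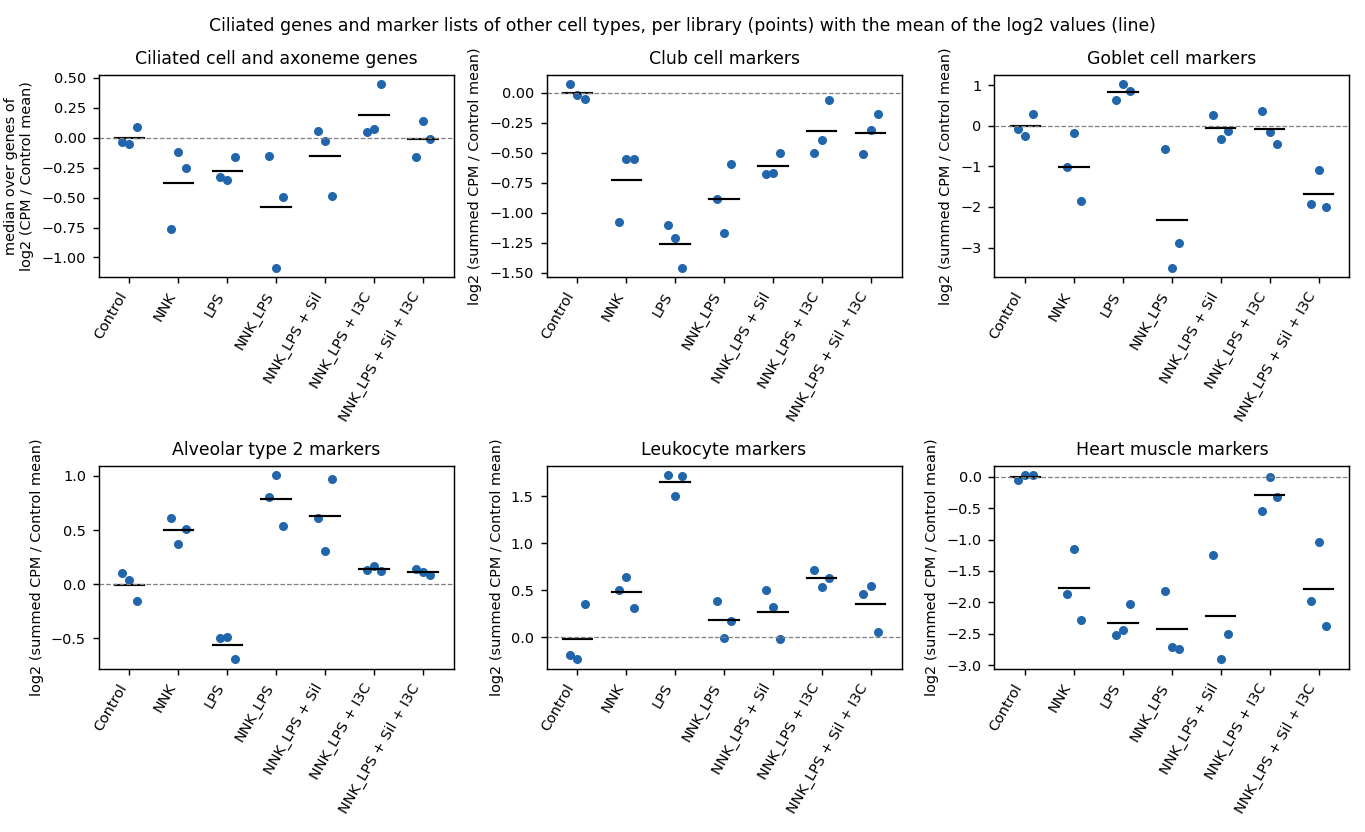
Log2 relative to Control of the ciliated genes (median over the 35 genes) and of the summed CPM of 5 marker lists (vertical axes) in each library (points) of the 7 groups, with the mean of the log2 values as a line. Ciliated genes and club markers are lowest in NNK 1 within NNK and in NNK_LPS 2 within NNK_LPS, and LPS has the lowest club and the highest leukocyte values.

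A further 62 motile cilium genes in the table, of 63 listed, were described beside the members, and 61 of them were tested. In NNK versus Control 5 fell and 1 rose (median -0.39), among them Mns1, a meiosis and cilium filament protein, by 0.76 (adjusted p = 0.0181), and Myb, which acts early in the making of multiciliated cells, by 0.69 (adjusted p = 0.0188) on the log2 scale. In LPS versus Control 5 fell and none rose (median -0.19), with the smallest adjusted p for Dnal1, a light chain of the outer dynein arm, at -0.75 (adjusted p = 2.24e-05), and Spef1, of the central apparatus, at -0.62 (adjusted p = 0.000583). In NNK_LPS versus Control 14 fell and none rose (median -0.48), with the smallest adjusted p for Spef2 of the central pair at -0.83 (adjusted p = 0.0066). In NNK_LPS versus LPS 9 fell and 1 rose (median -0.30), with Capsl at -1.08 (adjusted p = 0.000297) and Cdhr4 at -1.12 (adjusted p = 0.0111). In NNK_LPS versus NNK and with silibinin or both agents none was called, and the medians were -0.12, 0.38 and 0.45. With I3C 4 rose and none fell (median 0.69), among them Spef2 by 0.87 (adjusted p = 0.0358) and Rsph10b, of the radial spoke, by 0.79 (adjusted p = 0.0422). In the interaction 1 rose and 1 fell. The shares of all genes called in these comparisons were 13.1% in NNK, 50% in LPS and 24.6% in NNK_LPS versus Control, 38.2% in NNK_LPS versus LPS, 2.02% with I3C and 25.1% in the interaction. These genes come from the same libraries and are no independent evidence. 1700009P17Rik, the row under the older symbol of Cfap126, had 23.3, 21.3 and 23.8 CPM in Control, 21.3, 10.6 and 18.2 CPM in NNK_LPS and 26.5, 25.2 and 33.3 CPM in NNK_LPS_I3C, and was called in none of the 9 comparisons.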

How the data were processed

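RNA of 21 mouse lung libraries, 7 groups of 3, was sequenced from TruSeq libraries (version 2 kit, per the labels' protocols). The deposited table held the authors' whole-number counts per gene symbol for 38924 symbols, of which 16756 were 0 in every library. The build was mm10, per the submitters' processing notes. How reads were aligned and counted, with which annotation and strand setting, is not given in the sources used here, so overlapping genes on opposite strands may share reads.

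The analysis used edgeR 4.0.16 in R 4.3.3: trimmed mean of M-values, filterByExpr with a minimum count of 10 (15770 genes left), and a robust quasi-likelihood fit of all 7 groups (14 residual degrees of freedom, biological coefficient of variation 0.168). Benjamini-Hochberg adjustment ran across the whole table within each of 9 contrasts, and genes were called at an adjusted p under 0.05. The procedure was tried on simulated counts drawn gene by gene, without library sets or genes that move together. That trial therefore does not cover these features of the data. Intervals of log2 fold changes are 95%. Levels per kb used the longest coding transcript of GENCODE on GRCm38. Library totals were 13.3 to 25.3 M.

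The alternatives were DESeq2 1.42.0, relative log expression size factors, a fit without the filter on low counts, the compared groups alone, the library set as a term, a replicate block, and each library left out in turn. Fits to library set B alone were added after seeing the data.

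The members, the other gene lists and the tests were chosen with earlier results of these data known. Libraries are listed for the member with the highest mean CPM of a role and for the 3 called members with the largest change in each contrast. Some are listed outside these rules, with the values known, such as Cdhr3 with I3C, Ccdc153 with both agents and Rfx2 in NNK_LPS. Of each other list up to 2 called genes are named per contrast. Comparisons with Control share its libraries, and those of the diets share NNK_LPS. No pair of libraries agreed within sampling noise.

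Replicate numbers were checked by correlating the deviations of same-numbered libraries from their group means (log2 CPM, prior count 2). Every pair was over 0.1 only for NNK_LPS_I3C with NNK_LPS (0.158 to 0.276), and correlations this weak do not establish a pairing. The labels give no ground for pairing, so the replicate block is only an alternative fit.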

Additional observations from a re-analysis of the deposited data

Results flagged for a closer look

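The log2 effect of LPS differed between tumours and lung for Tppp3 by 1.08 and for Tekt2 by 1.07, as tested by the interaction of the 4 groups with edgeR (adjusted p = 0.000749 and 0.0388). Both genes fell with LPS in lung, and neither passed the test for LPS in tumours. In tumours of mice given NNK without LPS, Tppp3 was lower than in Control (-0.86, adjusted p = 0.00326 by edgeR) while Tekt2 was at -0.74 (adjusted p = 0.06) without a call. Of the 35 ciliated genes 2 were called in this contrast, beside 25.1% of all genes. The Tppp3 difference ran from 0.95 to 1.19 over 18 alternatives and was called in each, with adjusted p from 2.2e-06 to 0.0104. The Tekt2 difference ran from 0.78 to 1.36 and was called in 8 of 18, with adjusted p from 0.0116 to 0.118. Tekt2 held between 5.22 and 15.8 CPM per library, at the lower end of the members, and part of its exons overlaps Gm12945 on the opposite strand.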

How the results depend on the processing

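With no alternative did a called ciliated gene turn its direction, and 201 alternative values of called genes kept their call while 144 lost it. Fitting the compared groups alone moved the number of members called to 17 (1 higher, 16 lower) in LPS versus Control, 4 in NNK_LPS versus Control, 1 in NNK_LPS versus LPS, 1 in the interaction and 0 with I3C. With the library set as a term it was 3 in LPS versus Control, 0 in NNK_LPS versus Control, 1 in the interaction and 0 with I3C. DESeq2 called 19 members with I3C and 9 with both agents. How many of all genes each alternative called is not given here, so these counts have no background beside them. Set B alone, with 1 library in an arm whose spread is assumed to be that of the other groups, gave 0 in NNK_LPS versus LPS and 0 with I3C, counts that say little. With the replicate block 2 members were called with I3C and 1 with both agents, and it moved no other count by more than 1.5 times. In all comparisons the replicate numbers were only shared numbers, with correlations of -0.292 to 0.394. Leaving out each library gave 1 to 2 members in NNK versus Control, 2 to 5 in LPS versus Control, 2 to 19 in NNK_LPS versus Control, 0 to 0 in NNK_LPS versus NNK, 1 to 8 in NNK_LPS versus LPS, 1 to 2 in the interaction, 0 to 0 with silibinin, 0 to 23 with I3C and 0 to 2 with both agents. Depth limits Lrrc6 most, the member with the lowest level at 2.30 to 7.40 CPM, since 1 read is worth 0.0382 to 0.0759 CPM. The causes of these shifts were not tested.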

Other observations

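Genes of the transport machinery that motile and primary cilia share were followed apart from the axoneme genes: the trains, their motors and the BBSome, a coat complex that moves membrane proteins in cilia. Of 32 listed, 31 were tested. In LPS versus Control 14 fell and 3 rose (median -0.24, against -0.02 for all genes), beside 50% of all genes called, with the smallest adjusted p for the BBSome gene Bbs2 at -0.69 (adjusted p = 3.5e-05 by edgeR) and the kinesin adaptor gene Kifap3 at -0.39 (adjusted p = 0.000334). In NNK versus Control 3 fell and 1 rose, beside 13.1% of all genes called, with Ift74 at -0.45 (adjusted p = 0.00673), and in NNK_LPS versus Control 11 fell and none rose (median -0.26), beside 24.6%. In NNK_LPS versus LPS 4 fell and 2 rose, beside 38.2%, among them Ift57 at -0.88 (adjusted p = 7.33e-05). In the interaction 4 were higher and 1 lower, beside 25.1%, with Bbs2 at 0.76 (adjusted p = 0.00105). With I3C 1 rose, beside 2.02%, Bbs1 by 0.50 (adjusted p = 0.0437), and the median was 0.12. None was called in NNK_LPS versus NNK, with silibinin or with both agents. Their summed level varied less than that of the ciliated genes, from 732 to 956 CPM over all libraries. Since cells without motile cilia also use these genes, their levels in bulk lung do not belong to the ciliated cell alone.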
